A study of Homo sapiens with 12 samples.

Results

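HOX genes were examined in 2 types of human neuron made from stem cells, induced motor neurons (iMNs) and the excitatory glutamatergic neurons called i3Ns. Members were the genes whose symbol is HOX, a cluster letter from A to D and a number. Of 39 such human genes, 31 were listed in at least 1 of the tables, which together hold 18623 gene symbols. The iMN table listed 27, the i3N table listed 22, and 18 stood in both. Of all 18623 symbols, 85.4% were listed for iMNs, 98.7% for i3Ns, and 15666 for both.

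The iMNs were differentiated from an iPSC line carrying Td-Tomato under the HB9 promoter and were sorted for that reporter. Their differentiation used inhibitors of SMAD signaling, CHIR99021, retinoic acid and smoothened agonist. The i3Ns were made from H1, an established human ES cell line, with an inducible NGN2, whose product drives stem cells to an excitatory neuronal fate. Both types carried a doxycycline-inducible shRNA, either scrambled (SCR) or against SMN1 and SMN2 (*SMN*-KD), and RNA was sequenced after 12 days of knockdown from 3 SCR and 3 *SMN*-KD libraries of each type. Each gene's level is the mean normalized count, 1 value per table that the authors averaged over all 6 libraries of that neuron type, so it describes the SCR and *SMN*-KD neurons together. Values per library were not used here, the depth of each library is unknown, and no SD, interval or test stands behind any difference below. Each neuron type came from 1 stem cell line by 1 protocol, so type, line and protocol cannot be told apart. In these bulk samples, fewer cells expressing a gene and less RNA per cell cannot be told apart either.

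HOX genes encode homeodomain transcription factors that give cells their position along the body from head to tail. They lie in 4 clusters and are numbered by paralog group, and along a cluster the low-numbered genes are generally active from more anterior levels and earlier than the high-numbered ones, an order known as colinearity. In the embryo, the low groups mark the hindbrain, the middle groups the cervical and thoracic spinal cord, and the high groups the lumbar and sacral cord, while the forebrain, which gives rise to the cortex, expresses few of them. In motor neurons they help to set columnar and pool identity, and retinoic acid, which posteriorizes neural tissue, activates many anterior members.

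On GRCh38 the HOXA cluster spans chr7:27092993-27200091 and HOXB spans chr17:48528526-48728750, both with their genes on the minus strand. HOXC spans chr12:53938831-54056030 and HOXD spans chr2:176092721-176190907, both on the plus strand. The promoter windows below lie on either side of the place in HOXA and in HOXD where the level in iMNs dropped, and are shown so that these genes can be compared. They come from RefSeq on GRCh38.p14, run 5′ to 3′ on the gene's strand from 250 bases before the start to 50 bases after it, and carry CCAAT, or its complement ATTGG, in capitals where it occurs, which it does not in HOXD8. The mean normalized count in iMNs was 1173 for HOXA7 (window chr7:27156626-27156925, minus strand), while HOXA9 (chr7:27165488-27165787, minus strand) was not listed. It was 2014 for HOXD8 (chr2:176129455-176129754, plus strand) and 9.23 for HOXD10 (chr2:176116528-176116827, plus strand). HOXD9, which lies between HOXD8 and HOXD10, stood at 222 in iMNs and had no matched window.
HOXA7: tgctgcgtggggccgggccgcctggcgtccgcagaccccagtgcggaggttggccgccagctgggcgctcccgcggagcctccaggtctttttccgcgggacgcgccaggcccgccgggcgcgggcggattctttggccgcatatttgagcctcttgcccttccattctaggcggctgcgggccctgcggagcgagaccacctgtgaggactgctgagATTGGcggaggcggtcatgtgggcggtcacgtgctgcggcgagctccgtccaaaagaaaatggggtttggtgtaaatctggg
HOXA9: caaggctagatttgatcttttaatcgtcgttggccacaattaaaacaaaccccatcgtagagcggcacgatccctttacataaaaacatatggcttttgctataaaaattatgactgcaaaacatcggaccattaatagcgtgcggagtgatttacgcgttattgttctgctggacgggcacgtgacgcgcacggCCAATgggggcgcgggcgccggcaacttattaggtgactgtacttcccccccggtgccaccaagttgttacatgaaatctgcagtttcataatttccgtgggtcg
HOXD8: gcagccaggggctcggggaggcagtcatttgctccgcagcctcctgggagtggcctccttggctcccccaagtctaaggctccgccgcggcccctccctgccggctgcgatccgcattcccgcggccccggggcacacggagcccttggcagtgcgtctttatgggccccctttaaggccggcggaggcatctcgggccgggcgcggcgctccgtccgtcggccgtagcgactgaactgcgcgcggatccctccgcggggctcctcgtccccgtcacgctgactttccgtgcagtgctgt
HOXD10: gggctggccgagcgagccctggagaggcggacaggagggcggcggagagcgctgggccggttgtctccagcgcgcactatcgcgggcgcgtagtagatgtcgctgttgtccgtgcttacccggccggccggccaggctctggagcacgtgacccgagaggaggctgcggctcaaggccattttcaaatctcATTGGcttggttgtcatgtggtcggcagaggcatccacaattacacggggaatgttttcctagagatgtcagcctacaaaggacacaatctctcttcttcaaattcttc

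CCAAT was frequent in the matched windows, both of expressed and of other HOX genes. RefSeq windows were matched for 18 of the 39 genes, 9 of them from genes at 100 or more in iMNs and 9 from genes under that level or not listed. All came from HOXA and HOXD apart from that of HOXB1. The set thus leaves out HOXB9, HOXB8, HOXA5 and HOXC6, which were among the highest HOX genes in iMNs. CCAAT, a motif bound by the factor NF-Y, stood on either strand in 15 of the 18 windows (83.3%), against 34.6% of 34943 promoter windows of the same length. It was in 8 of the 9 windows of the expressed genes and in 7 of the 9 others. In 11 of the 18 it lay within 100 bases before the start, against 18.1% of all windows, a range chosen after the positions had been seen. The CG dinucleotide count had a median of 27 in the expressed genes (range 4 to 36), 23 in the others (range 11 to 44) and 14 over all windows. AGGTCA, the core element that retinoic acid receptors bind, was in 0 of the 18 windows and in 13.8% of all windows, which says only that these letters are not in these 300 bases. TATAAA was in 4 of the 18 (22.2%, against 11.6%), TTTATG in 3 (16.7%, against 10.6%) and TGATNNAT in 3 (16.7%, against 7.42%), each searched on both strands. TTTATG shares all but its last letter with TTTATA, the complement of TATAAA, so matches of these motifs can overlap in part. A match is not a binding site.

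In iMNs, HOX RNA was abundant and came from the anterior and middle parts of the clusters. Of the 27 genes listed, 24 reached a mean normalized count of 100, where 78.6% of all symbols in that table reached this level, and 19 reached 1000. Their median was 1942, against 925 over all symbols of the table, and 19 of the 27 stood above that table median. Summed over the listed members, HOX genes took 2609 per 1000000 of all mean normalized counts in iMNs. In i3Ns, 3 of the 22 listed genes reached 100, where 68.2% of all symbols did, and none reached 1000. Their median was 14.9, against 620 for the table, none stood above the table median, and HOX genes took 22.2 per 1000000. The share in iMNs was thus 117-fold that in i3Ns, and 60.4-fold (1283 against 21.2 per 1000000) over the genes that both tables list. The tables were normalized separately, and a share within each table does not depend on that scaling.

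**Figure D1:**
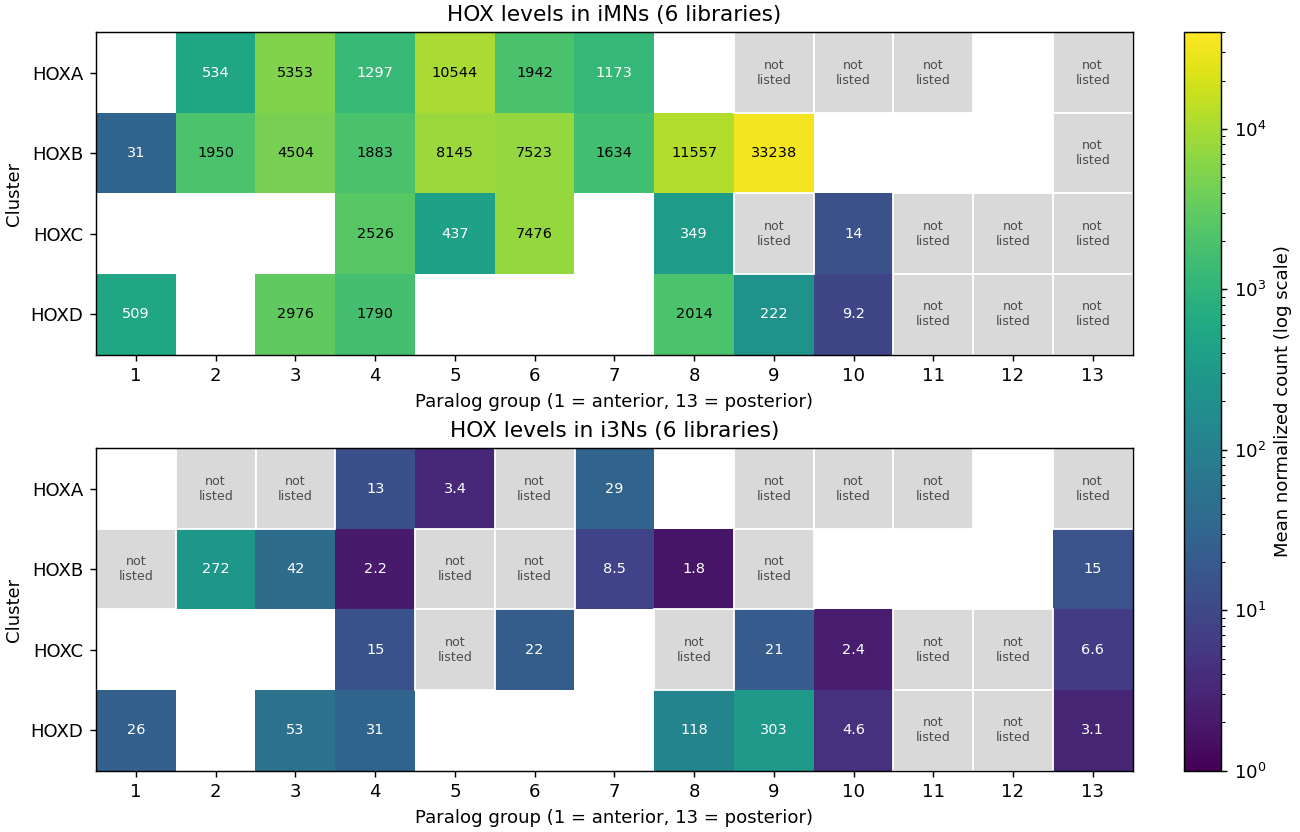
Mean normalized count of HOX genes by cluster (rows) and paralog group (columns), with iMNs above and i3Ns below and color on a log scale. Grey cells are genes not listed in that table and white cells are positions with no human gene or with a value not shown. In iMNs the genes at 100 or more end at group 7 in HOXA, 8 in HOXC and 9 in HOXB and HOXD, while in i3Ns only HOXB2 (272), HOXD8 (118) and HOXD9 (303) exceed 100.

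The boundary in iMNs fell at paralog group 9 or just before it. All 8 genes of groups 1 to 3 were listed and 7 of them reached 100, the exception being HOXB1 at 30.7. All 15 genes of groups 4 to 8 reached 100, from 349 for HOXC8 to 11557 for HOXB8, and together they made up 53.4% of the HOX sum. Of the 4 genes of group 9, HOXB9 and HOXD9 were listed while HOXA9 and HOXC9 were not. Of the 12 genes of groups 10 to 13, HOXC10 (14) and HOXD10 (9.23) were listed, at 0.0206% of the sum. The last gene at 100 or more was in group 7 in HOXA, 8 in HOXC and 9 in HOXB and HOXD. The iMN table's lowest mean was 7.73, so an unlisted gene has no value here, which is not the same as a level of 0.

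HOXB carried 62.4% of the HOX sum in iMNs, HOXA 21.4%, HOXC 9.56% and HOXD 6.65%. The leading gene was HOXB9, which in the embryo marks thoracic levels, with a mean normalized count of 33238. Only 104 symbols in the iMN table stood higher, and this single gene made up 29.4% of the HOX sum, so without it HOX genes took 1841 per 1000000. Next to it, HOXB8 reached 11557, HOXB5 8145, HOXB6 7523 and HOXB3 4504. HOXB2 (1950), HOXB4 (1883) and HOXB7 (1634) were lower than these, and HOXB1, an early hindbrain gene, was the lowest listed member of its cluster. Per kilobase of the MANE Select transcript, the scale on which genes can be compared, HOXB9 stood at 12853, HOXB8 at 5311, HOXB6 at 4488 and HOXB5 at 4381 mean normalized counts. In this cluster the level per kilobase was thus highest at the posterior end of the expressed block, and HOXB13, about a further 100 kb along, was not listed.

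In HOXA the peak lay at HOXA5, a gene of cervical levels, with 10544, or 6314 per kilobase. HOXA3 followed at 5353. HOXA6 (1942), HOXA4 (1297) and HOXA7 (1173) stood lower, and HOXA2, which patterns the hindbrain and the second pharyngeal arch, was at 534. Per kilobase, HOXA6 (1964) and HOXA3 (1769) were near each other and above HOXA7 (582) and HOXA2 (317). HOXA9, HOXA10, HOXA11 and HOXA13 were not listed in either table, so the cluster went from 1173 at HOXA7 to no listed value at the next one, HOXA9.

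HOXC, which has no genes of groups 1 to 3, was led by HOXC6 at 7476, or 4528 per kilobase, a gene of brachial levels. HOXC4 stood at 2526, HOXC5 at 437 and HOXC8, a brachial to thoracic gene, at 349. HOXC9, which in motor neurons marks the thoracic cord, was not listed for iMNs, and HOXC10, a lumbar gene, was at 14. In HOXD the order was HOXD3 (2976), HOXD8 (2014), HOXD4 (1790), HOXD1 (509) and HOXD9 (222), and per kilobase HOXD4 led with 1576 before HOXD3 with 1215. From HOXD8 through HOXD9 to HOXD10 the level per kilobase went from 769 to 119 to 5.17.

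**Figure D2:**
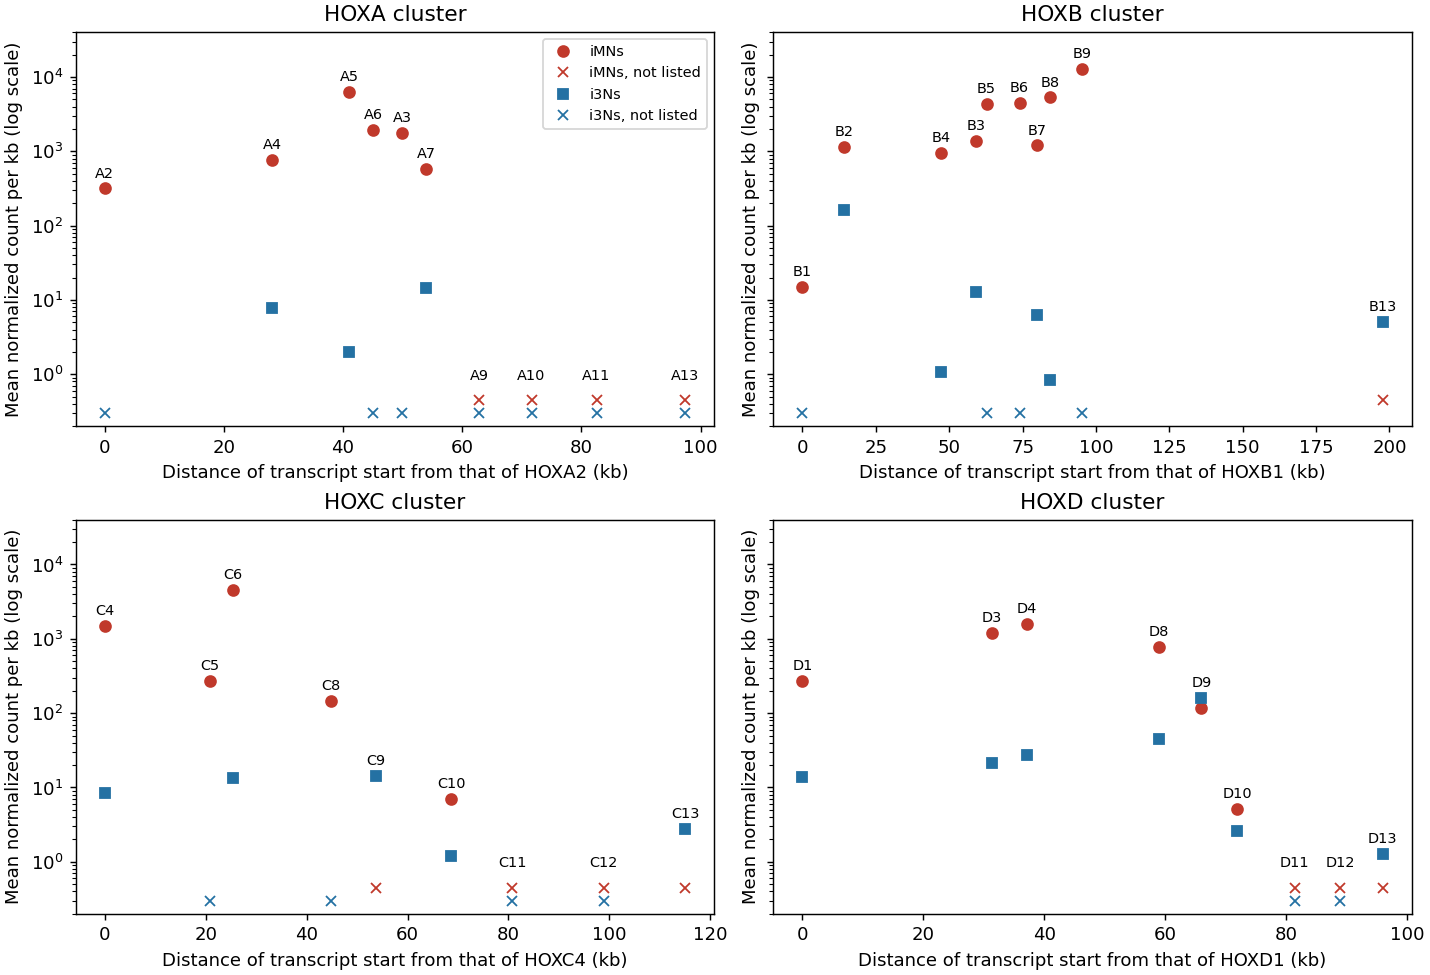
Mean normalized count per kilobase of transcript (log scale) against the distance in kb of each gene's MANE Select transcript start from that of the lowest-numbered gene shown, in 4 panels for the clusters, with iMNs as circles, i3Ns as squares and unlisted genes as crosses at the bottom. HOXA3 and HOXB3 are placed by long transcripts that start beyond their neighbors. Levels in iMNs end between HOXA7 and HOXA9, after HOXB9, after HOXC8 and after HOXD9, and the genes of groups 10 to 13 are unlisted or under 10 per kilobase in both types.

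In i3Ns the HOX RNA that was listed had a different makeup. HOXD held 53.7% of the small sum and HOXB 34.2%, with HOXC at 6.66% and HOXA at 5.40%. HOXD9, at 303, and HOXB2, which acts in the hindbrain, at 272, made up most of it, and per kilobase they stood at 162 each. HOXD8 followed at 118, then HOXD3 at 52.6 and HOXB3 at 42.3. The highest i3N member stood at the 40.9th percentile of its table, counting the share of symbols below it. Of groups 4 to 8, where every gene reached 100 in iMNs, 10 of 15 were listed in i3Ns and HOXD8 was the one that reached 100. The members that i3Ns listed and iMNs did not were HOXC9 (20.8), HOXB13 (15.3), HOXC13 (6.57) and HOXD13 (3.05). Of all 18390 symbols listed for i3Ns, 15666 were also listed for iMNs, as were 18 of the 22 HOX genes, a share near that background. The i3N table went down to a mean of 1.37, below the lowest mean of the iMN table, so HOXC13 and HOXD13 stood at levels that the iMN table does not list for any gene.

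Set side by side, 17 HOX genes had a ratio of the pooled means, taken where both tables list a gene and at least 1 mean is 10 or more. Ratios were centered on the median of all 15487 symbols with a ratio, which moved them by 0.08 on the log2 scale. A gene was counted as past the fold at 4-fold or more. The level was higher in iMNs by at least that much for 16 of the 17, where 5.39% of all symbols with a ratio were, and lower for 0, where 3.03% of all were. The median log2 ratio was 6.70, or 104-fold, and the range was -0.37 to 12.69. With no replicate values these are descriptions of 2 pooled means and not tested differences.

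The size of these ratios depends on the i3N value. For the 11 genes with an i3N mean of at least 10, 10 were past the fold and the median log2 ratio was 5.90. Among them HOXC6 stood at 7476 in iMNs and 22.3 in i3Ns (log2 ratio 8.47), and HOXC4 at 2526 and 14.5 (7.52). HOXB3 stood at 4504 and 42.3 (6.82), HOXA4 at 1297 and 13.2 (6.70), and HOXD3 at 2976 and 52.6 (5.90). HOXD4 was at 1790 and 30.8 (5.94) and HOXA7 at 1173 and 29.4 (5.40). The ratios nearer the threshold were those of HOXD1, at 509 and 25.7 (4.39), HOXD8, at 2014 and 118 (4.18), and HOXB2, at 1950 and 272 (2.92, or 7.58-fold). The other 6 genes had i3N means between 1.85 and 8.52, so that little counting lies behind their ratios. Among these were HOXB8 (11557 against 1.85), HOXA5 (10544 against 3.36), HOXB4 (1883 against 2.17), HOXB7 (1634 against 8.52) and HOXC10 (14 against 2.38). With a pseudocount of 10 on both means, the log2 ratio of HOXB8 went from 12.69 to 10.01 and that of HOXC10 from 2.64 to 1.03, under the 4-fold threshold.

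HOXD9 was the exception among the genes with a ratio. It stood at 222 in iMNs and 303 in i3Ns, a log2 ratio of -0.37, while its neighbor HOXD8 was 18.1-fold higher in iMNs. HOXD10 was at 9.23 and 4.60 and was given no ratio. By rank among the 15666 symbols that both tables list, a measure chosen after seeing the data, 16 of the 18 shared members stood higher in iMNs, by a median of 56.3 percentile points over the 18. HOXD9 and HOXD10 ranked lower, but the iMN table lists nothing under 7.73 while the i3N table goes down to 1.37, so the rank of a gene as low as HOXD10 carries no direction.

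Another 8 genes reached 100 in iMNs and were not listed for i3Ns, namely HOXB9, HOXB5, HOXB6, HOXA3, HOXA6, HOXA2, HOXC5 and HOXC8. They are 8 of the 24 HOX genes at that level in iMNs, where 0.312% of all symbols at that level (39 of 12502) were not listed for i3Ns. HOXB9, the highest HOX gene of the iMNs, was the highest of these 39 symbols. The filter the authors used for low counts is not given in the sources used here, so a fold cannot be set for these genes.

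**Figure D3:**
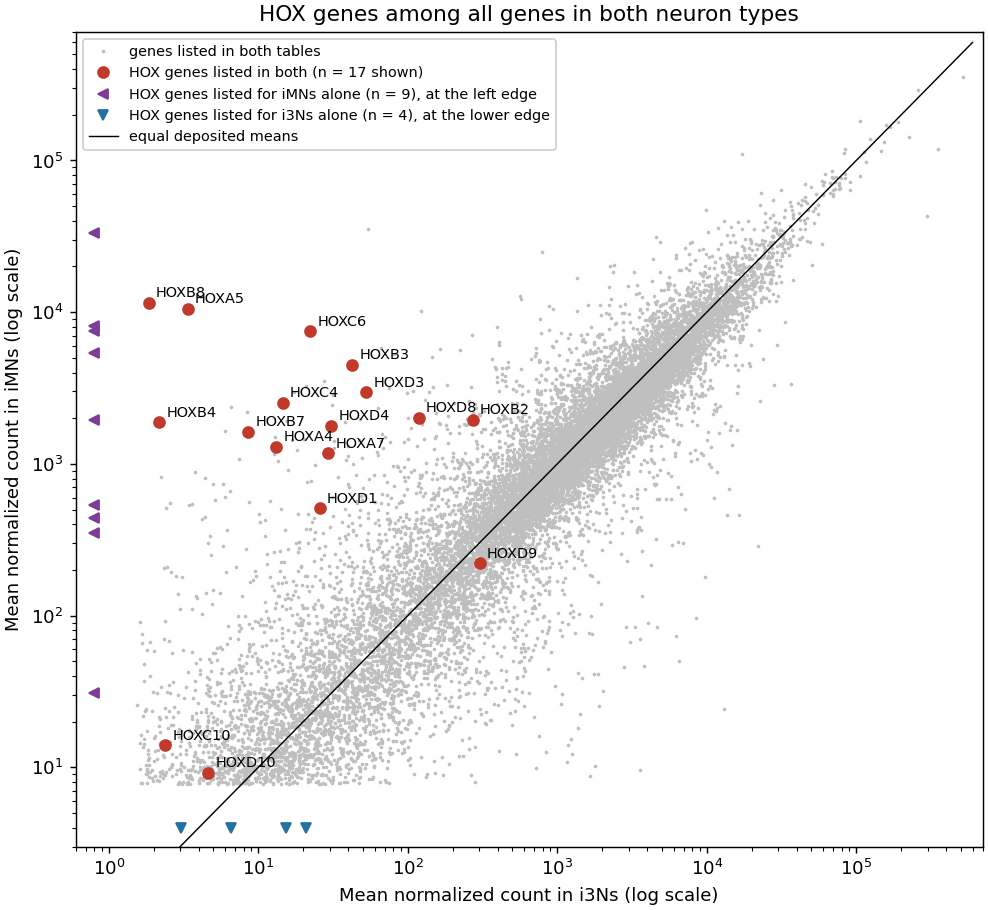
Mean normalized count in iMNs (vertical, log scale) against that in i3Ns (horizontal, log scale) for symbols listed in both tables (grey) and 17 of the 18 HOX genes among them (red), with the line of equal means. The 9 HOX genes listed for iMNs alone are triangles at the left edge and the 4 listed for i3Ns alone are triangles at the lower edge. Most HOX genes lie far above the cloud of other genes, and HOXD9 lies within it, at 222 and 303.

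Some members share exonic sequence with other annotated genes, and whether the counting used strand is not given in the sources used here. Exons of genes on the opposite strand covered 74.8% of the HOXA7 transcript (HOXA-AS3), 60.1% of HOXD1 (HAGLR) and 24.5% of HOXD8 (HOXD-AS2). They also covered 21.1% of HOXA6, 20.8% of HOXA3, 18.2% of HOXB6, 15.8% of HOXA4 and 11.9% of HOXB3. Genes on the same strand covered 67.3% of HOXC5, 32.1% of HOXA4, 13.2% of HOXA3 and 11.2% of HOXB6. If the counting ignored strand, reads of opposite-strand partners may be part of the named gene's level, and same-strand partners share its sequence either way. How such reads were divided between transcripts is not given in the sources used here, so these 9 levels are uncertain. HOXB9, HOXB8, HOXA5, HOXC6, HOXC8 and HOXD9 had no such overlap. Of 28 noncoding RNAs of the clusters, among them HOTAIRM1, HOTAIR and HOTTIP, 0 were listed in either table. The tables as a whole held 13 and 20 identifiers annotated as lncRNA, so this says nothing about these RNAs in the cells.

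Of 22 genes that flank the 4 clusters, 21 had a ratio, 19 of them within 4-fold and 2 higher in iMNs, with a median log2 ratio of -0.19. Over all symbols with a ratio 91.6% lay within 4-fold, so the flanking genes were near the background. CBX5, a heterochromatin protein gene next to HOXC, stood at 31084 in iMNs and 43203 in i3Ns, and MTX2, beside HOXD, at 1962 and 2423. The exceptions were SKAP2, beside HOXA, at 7214 and 1219 (log2 ratio 2.65), and SKAP1, beside HOXB, at 34.7 and 8.08 (2.18). The Polycomb and trithorax proteins, which keep HOX chromatin silent or active, were all listed in both types, and 20 of the 21 lay within 4-fold, again near the background. KMT2A, a trithorax methyltransferase, stood at 15232 and 20146, and EZH2, the Polycomb methyltransferase, at 577 and 1716 (log2 ratio -1.49). CBX2, a Polycomb reader of methylated histone, was the one past the fold, at 844 and 4661 (-2.38).

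HOX proteins bind DNA with partner homeodomain proteins of the PBX and MEIS families. All 9 genes of these families were listed in both types, 2 were past the fold and higher in iMNs, and 7 lay within it. The 2 were MEIS2, at 24870 in iMNs and 790 in i3Ns (log2 ratio 5.06), and MEIS1, at 12876 and 564 (4.59). PBX3, with 18059 and 9657, and MEIS3, with 8567 and 6091, lay within. No gene of the ParaHOX and EVX group, the closest relatives of the clusters, reached 100 in iMNs. EVX1, next to HOXA13, stood at 25.6 and 25.3, and EVX2, next to HOXD13, was listed for i3Ns alone, at 114.

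Of 16 genes of the retinoic acid pathway, 13 had a ratio, with 7 higher in iMNs past the fold, 1 lower and 5 within, and a median log2 ratio of 2.03. The receptor gene RARB, itself a classical retinoic acid target, stood at 1143 in iMNs and 63.2 in i3Ns (4.26), RARG at 179 and 14.8 (3.69), RXRA at 3107 and 503 (2.71) and RARA at 3471 and 758 (2.28). DHRS3, which reduces retinaldehyde, was at 576 and 5.11 (6.90), ALDH1A2, which makes retinoic acid, at 181 and 33.0 (2.54), and CYP26B1, which degrades it, at 831 and 215 (2.03). RXRG went the other way, at 707 and 6416 (-3.10). CYP26A1, another degrading enzyme and retinoic acid target, was listed for i3Ns alone, at 68.8, as were CYP26C1 (8.20) and ALDH1A1 (2.44). CRABP1, a carrier protein gene, was at 11343 and 8710. Retinoic acid was in the medium of the iMN differentiation, and its part in these levels or in those of the HOX genes was not tested.

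**Figure D4:**
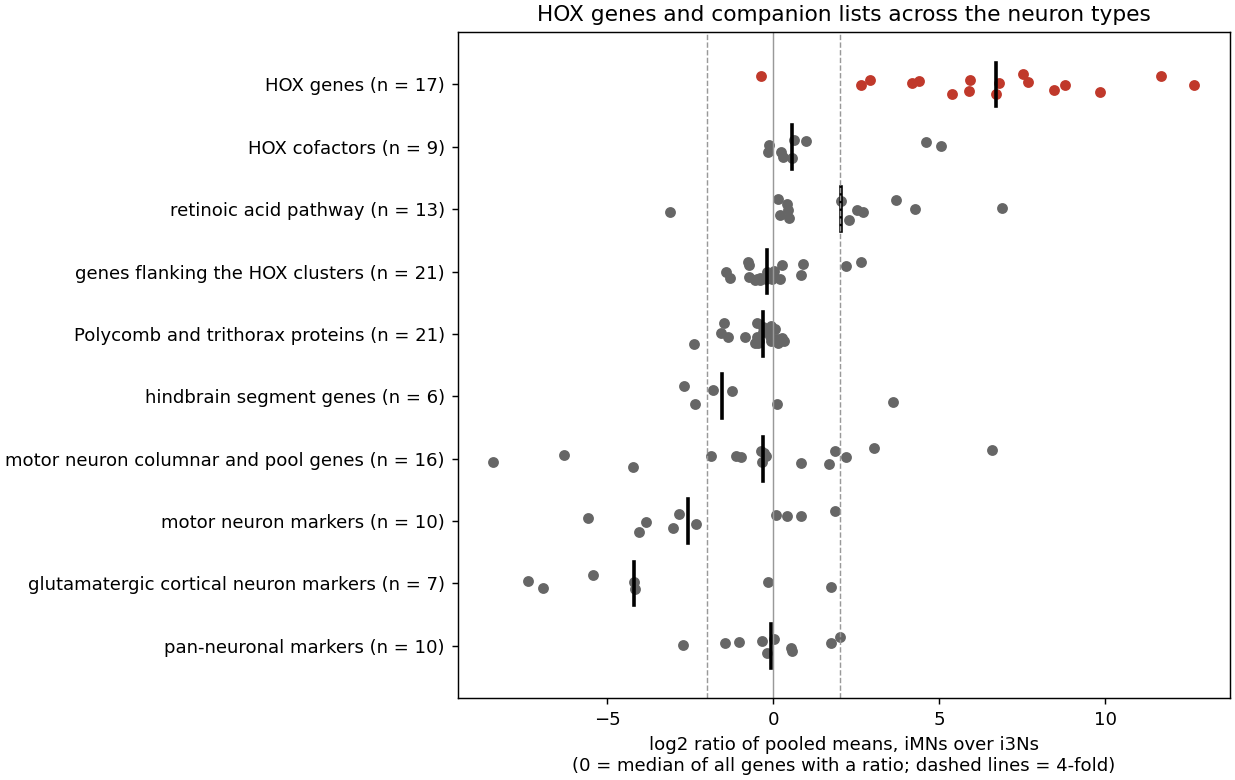
Log2 ratio of pooled means, iMNs over i3Ns, for each gene with a ratio (points), by list, where 0 is the median of all genes with a ratio, the black bar is the median of the list and the dashed lines mark 4-fold. HOX genes center on 6.70, the retinoic acid genes on 2.03 and the flanking genes on -0.19, and the lists of motor neuron and glutamatergic markers lie mostly to the left.

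The labelled cell types were checked against their markers, and the motor neuron label did not separate the tables in the direction of its transcription factors. Of 10 motor neuron markers, all were listed in both types, 0 were higher in iMNs past the fold, 6 were lower and 4 lay within. MNX1, which encodes HB9, stood at 430 in iMNs and 2279 in i3Ns, ISL1 at 1663 and 14299, ISL2 at 70.6 and 3558, LHX3 at 15.1 and 230, LHX4 at 1040 and 7819 and OLIG2 at 20.7 and 362. The cholinergic genes within 4-fold were CHAT (533 and 527), SLC18A3 (3115 and 1865) and SLC5A7 (8460 and 2472), beside the peripherin gene PRPH (7288 and 5833). Of 10 glutamatergic cortical markers, 7 had a ratio, with 5 lower in iMNs past the fold and 2 within it. Among the 5 were SLC17A6 (593 and 11237) and TBR1 (10.2 and 1801). The 2 were CUX2 (1734 and 2033) and EOMES, which was higher in iMNs (25.7 and 8.12). NEUROD2 (1215) and FEZF2 (9.17) were listed for i3Ns alone, and NEUROD6 was not listed in either table. The i3N libraries thus held RNA of motor neuron factors together with some of these cortical markers, 7 of the 10 reaching 100 there. Of 10 pan-neuronal markers 8 lay within 4-fold, with STMN2 at 81082 and 84088. The part of these differences in the HOX values was not tested.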

How the data were processed

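RNA of 12 libraries, 3 SCR and 3 *SMN*-KD of each neuron type, was depleted of rRNA and sequenced. The authors used fastp for trimming, Salmon for transcript quantification and DESeq2 for comparing groups within each neuron type. Versions, transcript annotation, strand setting and low-count filter are not given in the sources used here. The deposited signal used here is the mean of size-factor normalized counts over the 6 libraries of a neuron type. The deposited tables also hold log2 fold changes of *SMN*-KD against SCR, their standard errors and p-values, which were not used, so the knockdown response is not described. With 1 pooled mean per gene, no test was made. Means of identifiers sharing a symbol were summed, and symbols were matched between tables. Levels per kilobase used MANE Select lengths of GENCODE release 44 on GRCh38. Thresholds were a mean of 100, a mean of 10 in either table for ratios and 4-fold for ratios. HOX genes were named, apart from 1 that is not reported here, and of each companion list at most 4 genes with the highest means plus those a sentence turned on. Members and lists were chosen with earlier results of these data known. Alternatives changed thresholds, matching, pseudocount, scaling and transcript length. The centered ratio was tested on data simulated from the iMN means, which do not hold the different lowest means of the tables. The other steps were not tested on simulated data. All steps were run with Python 3.11.15 and pandas 2.3.3.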

Additional observations from a re-analysis of the deposited data

How the results depend on the processing

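Over genes listed in both tables, the HOX share in iMNs was 1283 per 1000000 in place of 2609, since HOXB9 and 8 other members then drop out. In i3Ns, 13 HOX genes were listed at a mean of at least 10, against 22 at any level, and the 3 that reached 100 became 0 at a threshold of 1000 and 13 at 10. With a pseudocount of 10 the median log2 ratio was 5.89 in place of 6.70. The other alternatives of these summary values, 31 in all, kept their direction and stayed within 1.5 times or the same call. Some of them could not have moved. HOXB9 is not listed for i3Ns, so leaving it out changes nothing there, and a lower fold threshold cannot reduce a count past it. HOXB held 57.5% of the iMN sum per kilobase of MANE Select transcript and 60.3% with union exon lengths, the latter chosen after seeing the data. No paired analysis was possible because the tables hold 1 pooled mean per gene, and leaving out a replicate was not run for the same reason. Counts per library are unknown, so means under 10 carry an unknown counting error.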

Other observations

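Transcription factors of the anterior brain, which lies in front of the HOX domain, were mostly listed for i3Ns alone. Of 18 such genes, 16 were listed in i3Ns and 4 in iMNs, where 98.7% and 85.4% of the symbols in either table were listed. Of the 16, 3 had i3N means under 7.73, the lowest mean of the iMN table. LHX2 (235), EMX2 (139) and OTX2 (63.6) had mean normalized counts in i3Ns and were not listed for iMNs, while 5 of the 18 reached 100 in i3Ns and 3 in iMNs. IRX3 stood at 170 in iMNs and 998 in i3Ns, EN2, a midbrain and hindbrain gene, at 14.6 and 90.1, PAX6 at 234 and 102, and GBX2 at 197 and 133.

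Of 10 genes of hindbrain segments and their neurons, 6 had a ratio, with 1 higher in iMNs past 4-fold, 2 lower and 3 within. PHOX2A, a factor of branchial and visceral motor neurons, was at 35.4 in iMNs and 241 in i3Ns (log2 ratio -2.69). EPHA7, an ephrin receptor gene, was at 4071 and 3960 (0.12). Of 18 genes of motor neuron columns and pools, 3 were higher in iMNs past the fold, 3 lower and 10 within. FOXP1, the HOX accessory factor of limb-innervating motor neurons, stood at 5594 and 1643 (1.85). MECOM was at 1157 and 12.7 (6.59), NKX6-2 at 599 and 77.0 (3.04) and TSHZ1 at 3611 and 832 (2.20). UNCX was at 9.61 and 3569 (-8.46), ETV1 at 73.9 and 6241 (-6.32) and BCL11B at 11.9 and 233 (-4.22).

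Markers of other cells were listed in both tables. Of 7 pluripotency genes, 6 were listed for i3Ns, 1 of them under the lowest iMN mean, and 2 for iMNs. SOX2, which neural progenitors also express, stood at 53.9 in iMNs and 38.9 in i3Ns, and LIN28A stood at 4216 in i3Ns and 215 in iMNs. Of 13 progenitor and glia genes, 9 were listed in each table, 3 were lower in iMNs past 4-fold and 5 within, with NES at 6043 in iMNs and 29662 in i3Ns and MKI67, a gene of dividing cells, at 28.3 and 522, while GFAP, AQP4 and SOX10 were not listed in either table. Of 10 mesenchymal genes, 2 were lower in iMNs past 4-fold and 5 within, with COL1A1 at 1321 and 4228 and COL1A2 at 686 and 611. Their part in the HOX levels was not tested.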
